A study of Mus musculus with 18 samples.

Results

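The 45 genes described here build the DNA replication machinery and its nucleotide supply. They were chosen by name from their known roles, with no measured value in the rule but with earlier results of these data known, and all 45 were found among the 43432 genes of the expression table and passed the minimum mean value of 50 that 10972 genes passed. They were followed in 8 RNA-seq libraries of cultured T cells from C57BL/6 mice (C57BL/6 J in the study's methods) and among the protein-occupied sites of 10 GCLiPP libraries, a method that crosslinks all RNA-binding proteins to RNA with ultraviolet light and sequences the protected fragments. CD4 T cells were grown for 5 days as Th2 cells with IL-4, anti-Ifn-gamma and IL-2, and CD8 T cells with IL-12 and IL-2, both with plate-bound antibodies to CD3 and CD28. For the last 4 hours cells were either re-plated in fresh medium (resting) or given PMA and ionomycin (stimulated), and each of these 4 conditions has 1 RNA-seq library without and 1 with actinomycin D, a drug that blocks transcription. Nothing in the labels ties a library with the drug to the same culture as one without. The labels give irradiation with 254 nm light at 8000 mJ and a lysate cleared of debris for every library, the controls included. The methods clear nuclei from that lysate, but describe lysis in Trizol LS for cells given actinomycin D, so the preparation of the libraries with the drug may have differed. Cells of several mice were pooled according to the study's methods. The methods add actinomycin D after the PMA and ionomycin, for several listed times up to 4 hours. Which of them applies to the RNA-seq cells, and how resting cells were given the drug, is not stated there, and the animals' age and sex are not given in the labels.

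Eukaryotic DNA replication starts at origins where the origin recognition complex, with Cdc6 and Cdt1, loads the ring of 6 MCM proteins. Cdc45, the GINS complex and Mcm10 then turn that ring into an active helicase, primase and the polymerases copy the strands, and the PCNA clamp, loaded by replication factor C, holds the polymerases on DNA. E2F transcription factors and cyclin E drive the entry into S phase, and ribonucleotide reductase, thymidylate synthase and thymidine kinase supply deoxynucleotides. T cells activated through CD3 and CD28 divide rapidly in culture, so such genes are high in them in general.

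The values are gene read counts that the authors divided by 1 factor per library, here called normalised counts. Library depth ran from 24154849 to 31042504 reads, and the members themselves held between 344 reads (Gins1, stimulated Th2, a counting error of 5.39%) and 26444 reads (Mcm6, resting Th2). With 1 library per condition, limma was fitted to all 8 libraries with terms for cell type, stimulation, actinomycin D and the interaction of the last 2, so each effect was judged against the spread left between Th2 and CD8 pairs. That spread is between libraries of different cell types, not between repeat cultures. The 6 T cell markers summed to between 56227 and 90823 in each library. The 6 Th2 markers were all lower and the 6 CD8 markers all higher in the CD8 libraries, with median log2 differences (CD8 minus Th2) of -7.61 and 1.89. The 5 stimulation markers all rose without the drug, with a median log2 change of 4.14. Of the 5 B cell markers, 3 passed the minimum, and their list summed to between 731 and 858 in the Th2 and between 136 and 231 in the CD8 libraries. The 4 stromal and endothelial markers summed to between 1193 and 1937 in Th2 and between 357 and 807 in CD8 libraries, where Cdh5 was at 0 in every one. The 5 myeloid and 4 NK markers stayed at or under 479 and 177 in sum in every library. In bulk RNA, fewer cells in S phase and less RNA per cell cannot be told apart.

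The promoters of these genes were read first, since E2F proteins bind a short sequence that many replication genes carry. RefSeq promoter windows (GRCm38.p6, 250 bases before to 50 after the start) were at hand for 37 of the 45 members. The letters TTTCCCGC, TTTCGCGC, TTTGCCGC or TTTGGCGC were present on either strand in 14 of these 37 windows (37.8%), compared with 4 of 37 mitosis genes (10.8%) and 2.61% of 27025 genes in all. Those of 6 members are shown, each as 30 bases on the gene's strand with the matching letters in capitals, because they span the helicase, licensing and S phase entry roles.

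Mcm3 (chr1:20820275-20820304, 23 bases after the start): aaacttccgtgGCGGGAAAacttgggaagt
Mcm5 (chr8:75109345-75109374, 149 bases before the start): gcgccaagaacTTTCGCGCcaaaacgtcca
Mcm6 (chr1:128359797-128359826, 106 bases before the start): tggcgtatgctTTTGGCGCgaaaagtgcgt
Orc1 (chr4:108579416-108579445, 23 bases before the start): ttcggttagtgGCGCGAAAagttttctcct
Cdc6 (chr11:98908002-98908031, 134 bases before the start): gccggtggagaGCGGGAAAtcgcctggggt
E2f2 (chr4:136172294-136172323, 43 bases after the start): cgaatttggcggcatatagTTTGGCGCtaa

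Distances are from the RefSeq start site to the centre of the match. Mcm3, Mcm6, Mcm5, Mcm7 and Rfc3 held more than 1 match, and the other members with a match were Gins3, Orc3, Cdt1, Pola1, Pold1 and Lig1. A match of letters is a description of the window and not evidence of binding, and the matches in Mcm5 and in the upstream part of the Mcm6 window overlap another match on the opposite strand.

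The CCAAT box stood in 23 of the 37 windows (62.2%) compared with 41.1% of all genes and 27 of 37 mitosis genes (73.0%), the highest share of the 3. The letters TTTGAA, the core of the element that marks G2 and M phase genes, stood in 6 (16.2%) compared with 20.2% of all genes and 26 of 37 mitosis genes (70.3%). The E2F letters were more frequent in the members than in the mitosis genes and TTTGAA less frequent, as the plot of promoter motif shares shows, and these shares were not tested. Overlap between the E2F letters and the other motifs was not removed.

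**Figure D1:**
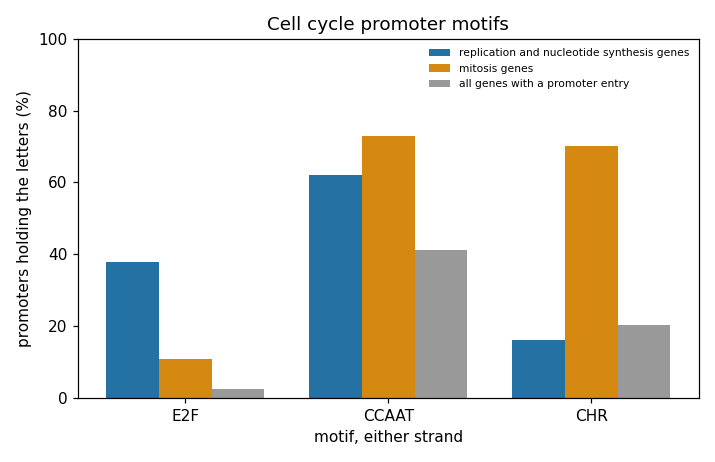
Bars give the percentage of promoter windows (300 bases) that hold the E2F letters, CCAAT or the CHR letters TTTGAA on either strand, for the replication and nucleotide synthesis genes (37 windows), mitosis genes (37) and all genes with a window (27025). E2F letters stand in 37.8% of the members and 2.61% of all genes, and CHR letters in 70.3% of the mitosis genes and 16.2% of the members.

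The first comparison asked how restimulation for 4 hours, without actinomycin D, changed these genes in both cell types. Of the 45 members 17 fell and 0 rose (limma, adjusted p under 0.05 over all genes tested), compared with 13.4% of all genes tested that were lower and 14.7% that were higher. At an unadjusted p under 0.05, 22 members were lower and 1 was higher, beside 4642 of 10972 genes tested in either direction. On 7 libraries edgeR and DESeq2 called 11 and 13 members lower and 0 higher, and the shares of all genes that they called are not given here. With cell type as a block and no library with the drug in the fit, 4 of the 17 calls were kept. The median log2 change of the members was -0.40 compared with 0.03 over all genes tested. By pairs of libraries, 42 of 45 members were lower in stimulated than in resting Th2 cells, compared with 48.5% of all genes tested. In CD8 cells 36 of 45 were lower, compared with 48.0% of all genes tested. The members' medians were -0.58 (Th2) and -0.20 (CD8). In 27 members both stimulated libraries lay below both resting ones, a pattern that was not counted over all genes tested.

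**Figure D2:**
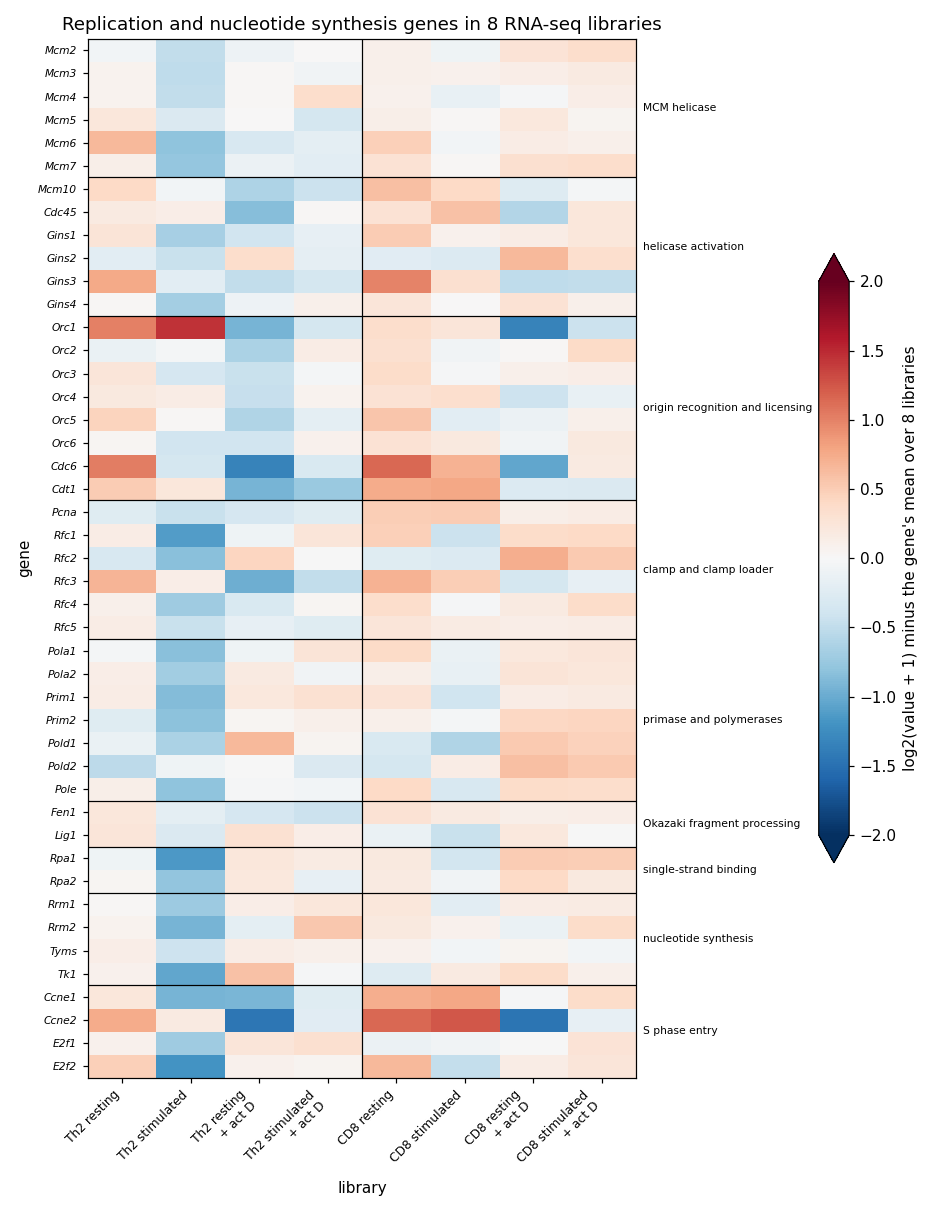
Each cell gives a gene's log2(value + 1) in 1 of 8 libraries minus that gene's mean over the 8, with genes in rows grouped by role and Th2 libraries left of the line. The untreated stimulated Th2 library holds the lowest value of 28 of the 45 genes (not counted over all genes tested). Cdc6, Ccne2 and Orc1 are lowest in the resting libraries with actinomycin D (act D).

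The values that follow are normalised counts, given for each cell type in the order resting, stimulated, resting with actinomycin D and stimulated with actinomycin D. E2f2, an E2F activator, had 4043, 1274, 3069 and 3028 (Th2) and 4552, 2089, 3227 and 3445 (CD8). It lies at chr4:136172394-136196057 on the plus strand (mm10). Its untreated stimulated libraries were the lowest of each cell type, and the change was -1.39 ± 0.17 (SE, adjusted p = 0.00261). Cyclin E genes, which partner Cdk2 at the start of S phase, and E2f1 did not pass: Ccne1 was -0.55 ± 0.27 (SE, adjusted p = 0.169), Ccne2 was -0.23 ± 0.25 (SE, adjusted p = 0.522) and E2f1 was -0.37 ± 0.22 (SE, adjusted p = 0.245). Each of these 3 was lower in the stimulated Th2 library and a little higher in the stimulated CD8 library.

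Among the 6 MCM subunits, Mcm6 and Mcm7 fell and all 6 changes were negative, with a median of -0.36. Mcm6 counts were 20588, 7511, 10490.4 and 11417 (Th2) and 18248, 12678, 14462 and 14092 (CD8), with the gene at chr1:128331590-128359664 on the minus strand (mm10). Resting untreated libraries were the highest of both cell types, and the log2 change was -0.99 ± 0.21 (SE, adjusted p = 0.0143). Mcm7 changed by -0.57 ± 0.16 (SE, adjusted p = 0.039), with counts of 5080.1, 2743, 4311 and 4047 (Th2) and 5708, 4779, 5817 and 5969 (CD8). The other subunits lay between -0.40 (Mcm4) and -0.30 (Mcm3), with values from 3536 (Mcm2, stimulated Th2) to 12676 (Mcm4, stimulated Th2 with the drug).

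Of the 6 helicase activators, Gins1 and Gins3 fell, both subunits of the GINS complex. Gins1 had 736, 389.6, 471 and 551 (Th2) and 873, 651, 680.1 and 720.2 (CD8), a change of -0.67 ± 0.17 (SE, adjusted p = 0.0258). Gins3 stood at 857, 437, 358 and 395 (Th2) and 1005, 635, 354 and 359.6 (CD8), a change of -0.81 ± 0.20 (SE, adjusted p = 0.0225). For both genes each untreated stimulated library lay below each untreated resting one. Gins2 at -0.14, Gins4 at -0.47 and Mcm10 at -0.32 were negative without passing, and Cdc45, the helicase cofactor, was at 0.13.

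Of the origin recognition and licensing genes 2 of 8 fell, with a median of -0.20 over the 8. Cdc6, which helps load the MCM ring, had 2469, 952, 481 and 984 (Th2) and 2706, 1972, 593 and 1388 (CD8), with the gene at chr11:98907801-98923940 on the plus strand (mm10). Both stimulated untreated libraries lay below both resting ones, with a change of -0.91 ± 0.22 (SE, adjusted p = 0.0223). Orc3 fell by 0.48, and Orc5 was at -0.59 ± 0.19 (SE, adjusted p = 0.0516). Orc1, the largest subunit of the complex, was at 0.15, Orc2 at -0.15 and Orc6 at -0.26. Orc4 and Cdt1 were 2 of the 3 members with the smallest change, at 0.00 ± 0.14 (SE, adjusted p = 0.983) and -0.12 ± 0.15 (SE, adjusted p = 0.576). Orc4 counts were 2348, 2287, 1485 and 2157 (Th2) and 2501, 2585, 1536 and 1859 (CD8).

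The third member with the smallest change was Pcna, the sliding clamp, at -0.09 ± 0.16 (SE, adjusted p = 0.686). Pcna had 6694, 5826, 6284 and 6673 (Th2) and 11174, 11257, 8589.9 and 8802 (CD8), so the difference between cell types was larger than that between states. Its loader differed: Rfc1, the large subunit, had 5712, 2381, 4893 and 6138 (Th2) and 7218, 3837, 6691 and 6829.6 (CD8), with the gene at chr5:65261852-65335670 on the minus strand (mm10). The stimulated untreated libraries were the lowest of each cell type and the change was -1.09 ± 0.15 (SE, adjusted p = 0.00365). Rfc4 stood at 1732, 991, 1308 and 1653 (Th2) and 2062, 1581, 1829.8 and 2080.2 (CD8) and fell, at -0.59 ± 0.15 (SE, adjusted p = 0.025). Rfc2, Rfc3 and Rfc5 lay between -0.37 (Rfc3) and -0.27 (Rfc2) and did not pass.

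Primase and the polymerases gave 4 calls of 7, all lower. Prim1, the catalytic primase subunit, had 3300.3, 1619.6, 3430.3 and 3649 (Th2) and 3588, 2249, 3301 and 3349.7 (CD8), a change of -0.85 ± 0.17 (SE, adjusted p = 0.0115). Pole, the leading strand polymerase, had 4283, 2269.7, 3907 and 3829 (Th2) and 5209, 3164, 5096 and 5048 (CD8), a change of -0.82 ± 0.12 (SE, adjusted p = 0.00426). Pola1, the catalytic subunit of polymerase alpha, had 3428, 1989.9, 3326 and 4247 (Th2) and 4608, 3209, 4095 and 4200.1 (CD8), a change of -0.65 ± 0.18 (SE, adjusted p = 0.0316). In all 3 genes the stimulated untreated library was the lowest of its cell type. Pola2 fell too, at -0.55 ± 0.16 (SE, adjusted p = 0.0437). Prim2 at -0.36 and Pold1 at -0.40 did not pass, and Pold2, the small subunit of polymerase delta, was the highest of the members, at 0.48 ± 0.19 (SE, adjusted p = 0.102), without passing.

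Both single-strand binding genes fell. Rpa1 had 7058, 3375, 8714 and 8412 (Th2) and 8606, 5802, 10665 and 10525 (CD8), a change of -0.82 ± 0.16 (SE, adjusted p = 0.0104). The stimulated Th2 library was the lowest of the 8, and the stimulated CD8 library the lowest of its cell type. Rpa2 was just past the threshold, at -0.54 ± 0.17 (SE, adjusted p = 0.0496). Of the genes that process Okazaki fragments, Lig1, the joining ligase, fell at -0.42 ± 0.12 (SE, adjusted p = 0.0445) and Fen1, the flap nuclease, was at -0.27.

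In nucleotide synthesis, Rrm1, the large subunit of ribonucleotide reductase, passed as 1 of 4. Its counts were 14651, 8691, 15815 and 16736 (Th2) and 16796, 12399, 15957 and 16152 (CD8), a change of -0.60 ± 0.16 (SE, adjusted p = 0.031). Rrm2, the small subunit, was at -0.56 ± 0.26 (SE, adjusted p = 0.153) with 10124, 5026, 8406 and 14018 (Th2) and 11004, 10249.6, 8754 and 12379 (CD8). The Th2 libraries carried nearly all of that difference. Tyms was at -0.35 and Tk1 at -0.34, and Tk1 was lower in stimulated Th2 cells (pair difference -1.13) and higher in stimulated CD8 cells (0.45).

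The members not listed library by library spanned these normalised counts over the 8 libraries. Among helicase genes Mcm2 ran from 3536 to 6333, Mcm3 from 6754 to 10898, Mcm4 from 7011 to 12676, Mcm5 from 5977 to 8883 and Gins4 from 709 to 1384. Cdc45 had 2460.2, 2398, 1214 and 2223 (Th2) and 2658, 3279.8, 1458 and 2549 (CD8), lowest in the resting library with the drug of each cell type. In the origin recognition complex Orc2 ran from 1590.1 to 3211, Orc3 from 1972 to 3479, Orc5 from 727 to 1608 and Orc6 from 1643 to 2613. Rfc5 ran from 1511 to 2444, Pola2 from 1172 to 2250.1, Prim2 from 887 to 2100.0, Fen1 from 1739.5 to 2888, Lig1 from 4169 to 7052 and Rpa2 from 1438 to 3291. Tyms ran from 1353 to 2010.3 and E2f1 from 771 to 1565. Tk1 had 1999, 912, 2831 and 1849 (Th2) and 1569.6, 2138, 2435 and 2023 (CD8), lowest in stimulated Th2 cells.

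The change was more negative in Th2 than in CD8 cells for 42 of the 45 members, which was not counted over all genes tested. A fit with a term for this difference called 0 members and 0% of all genes tested higher and 0% lower. At an unadjusted p under 0.05 it had 1 member, beside 173 of 10972 genes tested. In that fit, which holds the libraries with and without the drug, the difference was positive (CD8 minus Th2) for 39 of 45 members. It was positive for 5681 of 10972 genes tested. On 7 libraries edgeR called 1 member and DESeq2 called 2, with the shares of all genes that they called not given here. The untreated stimulated Th2 library also held the smallest share of its normalised counts in these 45 genes, 0.383%, compared with 0.563% to 0.762% in the other 7.

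The number of calls rested on single libraries. It was 2 without the resting Th2 library (Rfc1 and E2f2, the members called in all 8 such fits), 7 without the stimulated Th2 or without the resting CD8 library, 26 without the stimulated CD8 library, and 8 without either resting library with actinomycin D. In each of these fits 0 members were called higher, and the members' median lay between -0.58 and -0.26. With the scaling set by ribosomal protein genes the median of all genes shifted by -0.38. The members' median minus that of all genes was -0.43, as in the reported fit. That scaling divides each library by 1 factor and moves all genes nearly alike, so it could not change this value and is no check of it.

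**Figure D3:**
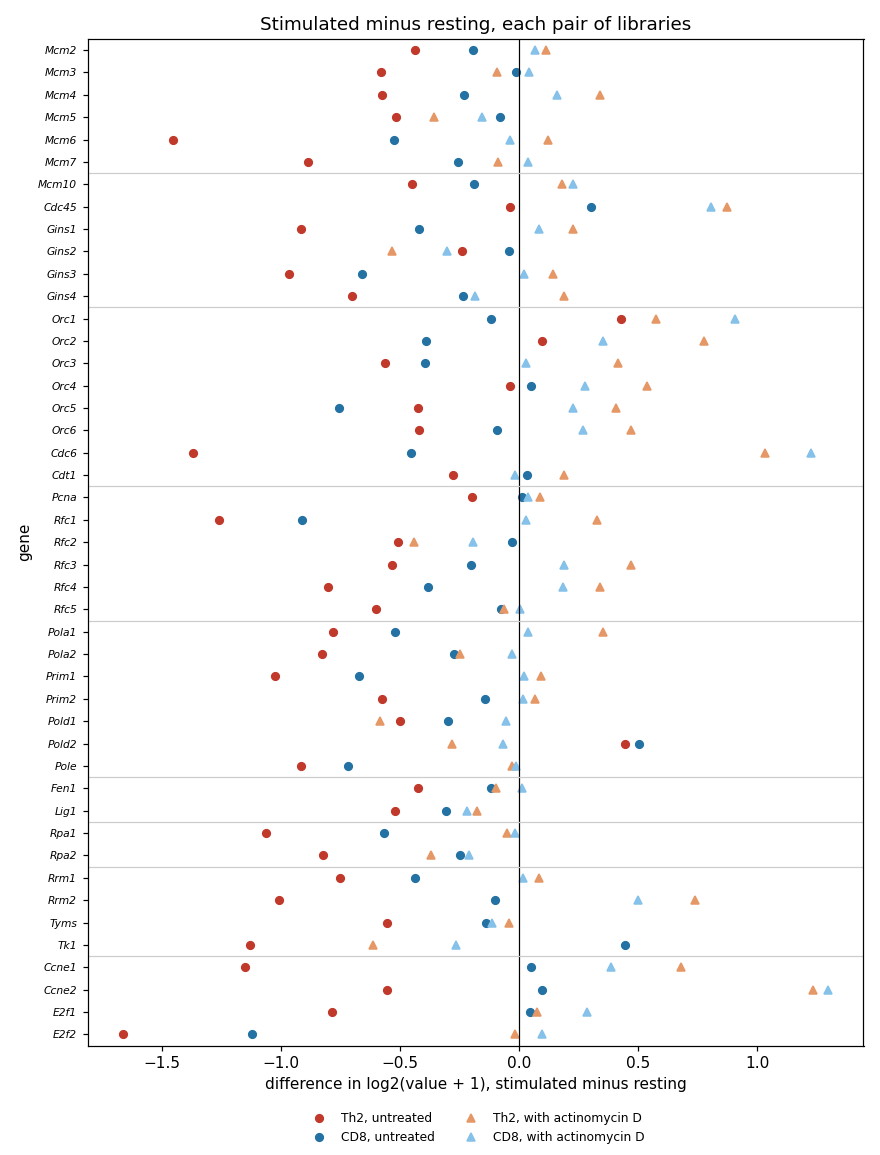
Points give the stimulated minus resting difference in log2(value + 1) for each gene, from 1 pair of libraries each, with circles for untreated and triangles for actinomycin D pairs. Untreated Th2 points are negative for 42 of 45 genes and untreated CD8 points for 36, while the points with actinomycin D lie on both sides of 0.

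Related genes that are not among the 45 were read from lists of textbook members, to see how far the change reached. Of 39 other fork proteins tested 20 fell and 2 rose, with a median of -0.57. The 3 with the largest change were Brip1, a helicase (-1.47), Top1, a topoisomerase (1.31), and Clspn, a checkpoint mediator (-1.28). Of 25 chromatin assembly and S phase checkpoint genes 14 fell and 0 rose, led by Brca2 (-1.63), Chek1 (-1.26) and Brca1 (-1.25). Of 40 other nucleotide synthesis genes tested 5 fell and 7 rose, with a median of 0.08, led by Dck (-1.31), Samhd1 (-1.16) and Shmt1 (1.08). Of 29 genes of the E2F and RB network 8 fell and 4 rose, led by the inhibitors Cdkn1b (-2.13) and Cdkn2c (-2.02) and by Rbl2 (-1.75). Of 46 mitosis genes 39 fell and 0 rose, with a median of -1.09, led by Cenpf (-2.60), Prc1 (-1.75) and Cenpe (-1.73).

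Stimulated and resting cells were also compared with actinomycin D, which the methods add after 4 hours of stimulation and not before it. Of the 45 members 0 were called in either direction, as against 0.0911% of all genes higher and 0% lower. At an unadjusted p under 0.05, 7 members were higher and 1 lower, beside 1304 of 10972 genes tested in either direction. On 7 libraries edgeR called 0 members and DESeq2 called 1, with the shares of all genes that they called not given here. The median was 0.06 over the members and 0.01 over all genes. The members with the largest values were Ccne2 at 1.27 ± 0.25 (SE, adjusted p = 0.19), Cdc6 at 1.13 ± 0.22 (SE, adjusted p = 0.183), Cdc45 at 0.84 ± 0.13 (SE, adjusted p = 0.111) and Orc1 at 0.74 ± 0.25 (SE, adjusted p = 0.375), all higher in the stimulated library of both cell types. A fit of the 4 actinomycin D libraries alone called 11 members higher and 5 lower. The share of all genes that this fit called is not given here, so its calls are not read as particular to the members. In fits that left out 1 library, the members' median lay between 0.02 and 0.20.

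The difference between the stimulation changes with and without the drug was then tested by the interaction term. It was positive and past the threshold for 8 members and negative for 0, compared with 7.06% and 7.44% of all genes, and the members' median was 0.58 against -0.01. At an unadjusted p under 0.05, 24 members were positive and 1 was negative, beside 3745 of 10972 genes tested in either direction. Cdc6 differed most, at 2.04 ± 0.31 (SE, adjusted p = 0.0131), where its stimulation change was -0.91 without and 1.13 with the drug. Ccne2 was at 1.50 ± 0.36 (SE, adjusted p = 0.0367), E2f2 at 1.43 ± 0.25 (SE, adjusted p = 0.0166) and Rfc1 at 1.27 ± 0.21 (SE, adjusted p = 0.0157). The other 4 were Prim1, Rfc4, Pole and Cdc45, between 0.71 (Cdc45) and 0.91 (Prim1).

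For 6 of the 8 the stimulation change was past the threshold without the drug and near 0 or positive with it, and Cdc45 and Ccne2 were at 0.13 and -0.23 without and at 0.84 and 1.27 with the drug, with neither change past the threshold on its own. Of the 46 mitosis genes 34 had a positive difference past the threshold. Most calls among the members were lost in most single-library fits, but not without the untreated stimulated Th2 or the untreated stimulated CD8 library. There were 0 calls without the resting Th2 library, without the resting or stimulated Th2 library with actinomycin D, or without the resting CD8 library with actinomycin D. There was 1 without the stimulated CD8 library with actinomycin D, there were 2 without the resting CD8 library and 23 without the stimulated CD8 library, and the median stayed between 0.43 and 0.71. The labels name no batch, but the preparation of the libraries with the drug may have differed, as given above. Preparation and drug therefore cannot be told apart.

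Actinomycin D against untreated cells asks how much of each transcript remained relative to all others, since the values are scaled within a library and a fall of all RNA together would not appear. In resting cells 14 members fell and 4 rose, compared with 25.3% of all genes lower and 21% higher. The members' median was -0.17 and that of all genes -0.01. Other markers moved with the drug too. The 5 myeloid markers summed to between 114 and 177 without and between 276 and 479 with it, and Cd68, which passed the minimum, was at 1.51 in resting and 1.77 in stimulated cells, both past the threshold. Of 6 T cell markers 4 rose in resting and 3 in stimulated cells, and the stromal and endothelial marker Pecam1 rose in stimulated cells (0.81). The part of these in the members' changes was not tested. By role, 6 of 8 origin recognition and licensing genes, 4 of 6 helicase activators and both cyclin E genes fell, and none of the 7 primase and polymerase genes did.

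Ccne2, a cyclin E gene, had 2509, 1705, 548 and 1289 (Th2) and 3319, 3547, 542 and 1335 (CD8), with the gene at chr4:11191351-11204779 on the plus strand (mm10). Both resting libraries with the drug lay far below the untreated ones, a 5.28-fold difference, and the log2 change was -2.40 ± 0.25 (SE, adjusted p = 0.000848). Cdc6 changed by -2.27 ± 0.22 (SE, adjusted p = 0.000675) and Orc1 by -1.82 ± 0.25 (SE, adjusted p = 0.00173). Orc1 counts were 2016, 2714, 526 and 783 (Th2) and 1280.4, 1178, 395 and 740.1 (CD8), with the gene at chr4:108579423-108614833 on the plus strand (mm10). They were lowest in the resting libraries with the drug. Gins3 changed by -1.38 ± 0.20 (SE, adjusted p = 0.00191). The remaining members that fell were Rfc3 (-1.34), Cdt1 (-1.22), Ccne1 (-0.94), Cdc45 (-0.94), Mcm10 (-0.93), Orc5 (-0.85), Orc4 (-0.68), Mcm6 (-0.65), Gins1 (-0.50) and Orc3 (-0.48). In 6 members, Cdc45, Gins3, Orc1, Orc4, Cdc6 and Ccne2, the 2 resting libraries with the drug were the lowest of all 8. How many of all genes tested share this was not counted.

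The 4 members that rose were Rfc2, Pold1, Pold2 and Gins2. Rfc2 had 1777, 1248, 3002 and 2208 (Th2) and 1889, 1848, 3677 and 3211 (CD8), a change of 0.86 ± 0.16 (SE, adjusted p = 0.00444). Pold1, the catalytic subunit of polymerase delta, had 1032, 729, 1770.3 and 1180.0 (Th2) and 918, 744, 1626 and 1566 (CD8), a change of 0.80 ± 0.17 (SE, adjusted p = 0.00861). Both genes were higher in the resting library with the drug in each cell type. Pold2 stood at 678, 924, 970.2 and 798 (Th2) and 765, 1086, 1482 and 1415 (CD8), a change of 0.73 ± 0.19 (SE, adjusted p = 0.0175). Gins2 had 745, 629.7, 1099.9 and 758 (Th2) and 731, 709, 1346 and 1089 (CD8), a change of 0.72 ± 0.17 (SE, adjusted p = 0.0114), and 67.3% of its exon bases are shared with exons of Gse1 on the other strand. With ribosomal protein scaling, which shifted the median of all genes by -0.94, all 4 were negative, between -0.22 and -0.084, and they lay above that median.

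**Figure D4:**
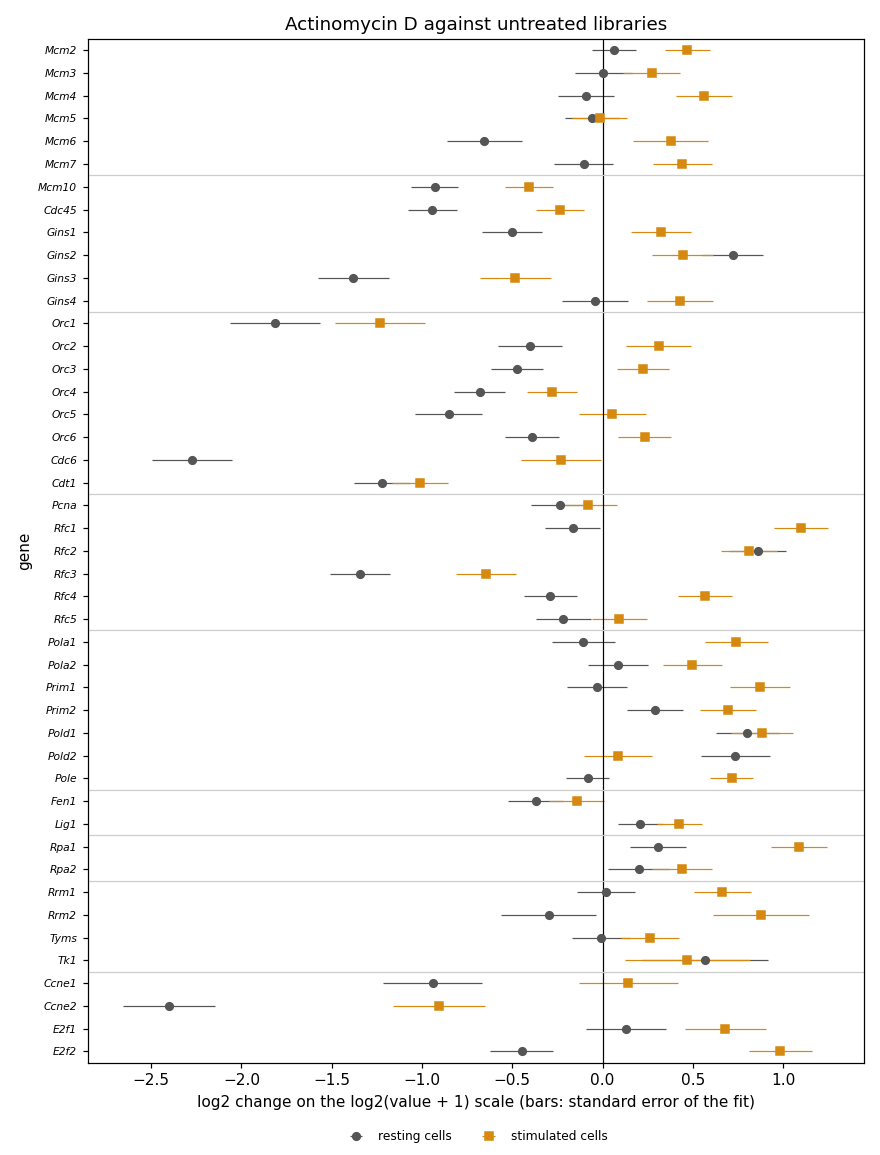
Points give the log2 change with actinomycin D against untreated libraries for each gene in resting (circles) and stimulated (squares) cells, with bars for the standard error of the fit (8 libraries). Ccne2, Cdc6 and Orc1 are lowest in resting cells, at -2.40, -2.27 and -1.82, and Rfc1 and Rpa1 are highest in stimulated cells, at 1.10 and 1.09.

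In stimulated cells the drug went with 17 members higher and 5 lower, compared with 23.6% of all genes higher and 27.3% lower. The members' median was 0.38 against -0.01 over all genes. This comparison and the stimulation comparison share the untreated stimulated libraries, so a low value there moves both. Rfc1 changed by 1.10 ± 0.15 (SE, adjusted p = 0.00125) and Rpa1 by 1.09 ± 0.16 (SE, adjusted p = 0.00147). E2f2 was at 0.98, Pold1 and Rrm2 at 0.88, Prim1 at 0.87 and Rfc2 at 0.81, and 6 of 7 primase and polymerase genes rose. The other members that rose were Pola1, Pole, Prim2, E2f1, Rrm1, Rfc4, Mcm4, Pola2, Mcm2 and Lig1, between 0.43 and 0.74.

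The 5 that fell were Orc1, Cdt1, Ccne2, Rfc3 and Mcm10. Orc1 changed by -1.23 ± 0.25 (SE, adjusted p = 0.00601). Cdt1, the licensing factor, had 1189, 979, 439.6 and 501 (Th2) and 1395, 1428, 693 and 684 (CD8), a change of -1.01 ± 0.15 (SE, adjusted p = 0.00191). In both cell types its 2 libraries with the drug lay below its 2 untreated ones. Rfc3 counts were 2432, 1677, 779 and 1079 (Th2) and 2462, 2142, 1195 and 1362 (CD8), and Mcm10 counts were 2126, 1555, 1059 and 1199 (Th2) and 2446, 2145, 1352 and 1582 (CD8). Ccne2 was at -0.91, Rfc3 at -0.64 and Mcm10 at -0.41. These 5 were lower with the drug in resting cells as well.

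Single libraries again set the counts. In resting cells there were 11 calls without either the resting CD8 library or the resting CD8 library with the drug, and 8 without the resting Th2 library with the drug. Called in every such fit were Mcm10, Cdc45, Gins3, Orc1, Cdc6, Cdt1, Rfc3 and Ccne2. In stimulated cells there were 7 calls without the stimulated Th2 library with the drug and 14 without the stimulated CD8 library with the drug. Cdt1, Rfc1, Rfc2, Pold1, Pole, Rpa1 and E2f2 were called in every one. Quantile normalisation called 26 higher and 2 lower there, and ribosomal protein scaling 7 higher and 8 lower. Of all genes called there, 58.7% were higher with quantile normalisation and 23.6% with ribosomal protein scaling, compared with 46.4% as reported.

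Of the 14 members with E2F letters in the promoter window 7 fell with the drug in resting cells, as did 5 of the 23 with a window and no match and 2 of the 8 with no window. With stimulation 8 of the 14, 7 of the 23 and 2 of the 8 fell. These counts were not tested.

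CD8 and Th2 cells were compared over the 4 conditions. In CD8 cells 17 members were higher and 1 was lower, compared with 18.1% of all genes higher and 18.7% lower. Of these 18 calls the additive model kept 2, edgeR on 7 libraries kept 6 and DESeq2 kept 11. Other scalings, filters and another pseudocount kept 16 to 18 of them. The members' median log2 difference, CD8 minus Th2, was 0.32 against 0.02 over all genes. In 25 members CD8 exceeded Th2 in all 4 conditions, a pattern that was not counted over all genes tested. The median was 0.14 in resting, 0.55 in stimulated, 0.30 in resting and 0.30 in stimulated cells with actinomycin D, so it was largest in the pair that holds the low stimulated Th2 library.

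Ccne1 differed most, at 0.92 ± 0.19 (SE, adjusted p = 0.00928), with counts of 2086, 939, 945 and 1515 (Th2) and 2944, 3049.9, 1759 and 2299.7 (CD8). Stimulated untreated Th2 cells and resting Th2 cells with the drug were the 2 lowest libraries. Pcna was at 0.63 ± 0.11 (SE, adjusted p = 0.00463), and every CD8 library lay above every Th2 library. Cdc6 was at 0.49 ± 0.16 (SE, adjusted p = 0.0422). Orc1 was the member that was higher in Th2 cells, at -0.59 ± 0.18 (SE, adjusted p = 0.0364). The clamp loader was higher in CD8 cells in Rfc1, Rfc2, Rfc4 and Rfc5, between 0.35 (Rfc5) and 0.44 (Rfc4). The other members called higher were Mcm2, Mcm7, Mcm10, Gins1, Cdt1, Prim2, Pold2, Pole, Fen1 and Rpa1.

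Without the resting library with actinomycin D of either cell type 2 members were called, Pcna and Ccne1 being called in every single-library fit. Without the stimulated library with the drug 9 (Th2) and 8 (CD8) were called. Without the stimulated Th2 library 17 were called and the median was 0.24. Cell type also went with the cytokines of the culture and with the B cell and stromal marker levels given above, and their part in this difference was not tested.

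**Figure D5:**
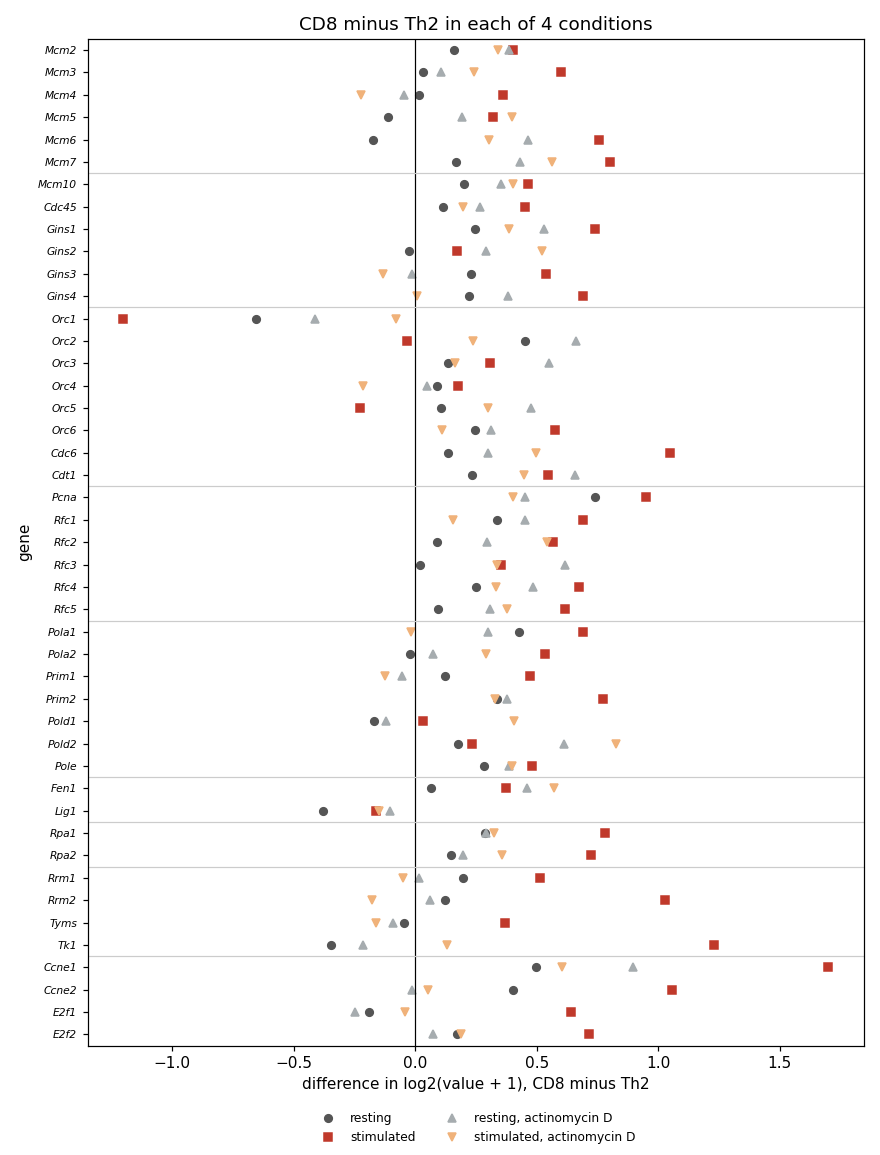
Points give the CD8 minus Th2 difference in log2(value + 1) for each gene in resting and stimulated cells, untreated and with actinomycin D, from 1 pair of libraries each. The untreated stimulated pair (squares) has the largest median, 0.55, and Orc1 is the gene with the lowest value in it, at -1.20.

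Levels were compared between genes per kilobase of exon, as the mean of the 4 untreated libraries. Pcna stood highest with 3641 normalised counts per kilobase, followed by Rrm2 with 3284, Mcm6 with 3163, Mcm4 with 2579, Mcm3 with 2490 and Mcm5 with 1944. Pcna ranged from 2427 to 4691 over those libraries and Rrm2 from 1814 to 3971, a spread between conditions and not between repeats. The order of the first places changed with the library. In resting Th2 cells Mcm6 (4412) and Rrm2 (3653) stood above Pcna (2789), and in each other untreated library Pcna stood above both. Gins2 with 172 and Pold1 with 176 stood lowest. The exon lengths are the union of all annotated transcripts, which lowers the value of genes with long minor transcripts.

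Some members share exon sequence with a neighbour, and no source used here says whether the authors' counting used strand. Exons of Fen1 overlapped those of Gm10143 and Tmem258 over 84.2% of their bases, Gins2 those of Gse1 over 67.3% and Orc2 those of Nif3l1 over 29.8%. Smaller overlaps were found for Ccne2 with Ints8 (17.4%), Rfc2 with Lat2 (15.1%), Rfc4 with Eif4a2 (12.7%), Mcm7 (12.6%), Orc1 (10.8%) and Rfc5 (10.7%). Parts of Mcm7 and Pcna were also shared as 50-base words with other transcripts (23.3% of the words of Mcm7 and 19.1% of those of Pcna, the latter with Pcna-ps2). The share of a gene's reads that this concerns was not measured, and the counts of these members are uncertain.

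GCLiPP peaks are 70-base windows in 3′ untranslated regions that the authors called on reads pooled over experiments, each with a score. Of the 27729 peaks in 6689 genes, 99 carried the name of a member, in 32 of the 45 members. This share, 71.1%, compares with 59.1% of all genes tested and 77.6% of those with a mean at least that of the lowest member. The members without a peak were Cdc45, Orc1, Orc3, Orc6, Cdt1, Rfc3, Rfc4, Prim1, Prim2, Pold1, Pold2, Pole and Tyms. The median peak score was 20 for members and 24 for all peaks, and both sets had a median of 2 peaks per gene with a peak.

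E2f2 held the most peaks, 12, followed by Rrm2 with 7 and by Mcm2, Mcm3 and Mcm6 with 6 each. The central 30 bases of the 6 member peaks with the highest scores are shown on the gene's strand (mm10), as the stretches where protein occupancy was called, and capitals are not used because no searched motif lay in them.

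Mcm3 (chr1:20803203-20803272, score 149): gagtcttcatgatttgagctgtgtttctgg
Rrm2 (chr12:24713543-24713612, score 100): tttagggctgtttaaagatgtcggactgct
Pola1 (chrX:93305056-93305125, score 80): ccagatgtttcactcacattccttctattt
Mcm5 (chr8:75127323-75127392, score 77): ctcaagcctgaaatgctgccaccaccctat
Lig1 (chr7:13311315-13311384, score 70): gtggtgttgattggtgtgtgtggagtcaca
Pcna (chr2:132249512-132249581, score 59): gcgtgtcctgaggtcttttctgtcaccaag

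The coordinates are those of the whole peaks. The Rrm2 peak held the AU-rich element core ATTTA outside the bases shown. Over the 97 member peaks whose sequence could be read, ATTTA stood in 7 (7.22%) and the U run TTTTT in 10 (10.3%), compared with 7.93% and 12.8% of 25741 peaks. The polyadenylation signals AATAAA or ATTAAA stood in 10 (10.3%) compared with 9.27%, and the Pumilio letters TGTANATA in 4 (4.12%) compared with 1.70%. Peaks were searched on the transcript strand. The peak centres lay a median of 386 bases before the transcript end, compared with 559 over all peaks. Each distance is to the nearest end among annotated transcripts that hold the peak, protein-coding ones first. Peaks of the same gene can thus be measured to different ends. Since peaks were pooled over libraries, no comparison between conditions could be made with them.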

How the data were processed

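According to the methods, GCLiPP and RNA-seq libraries were made from oligo-dT selected RNA of irradiated cells, with a stranded kit for RNA-seq. Whether the libraries with actinomycin D were prepared in the same way is not stated there. The authors aligned RNA-seq reads with STAR and GCLiPP reads with Bowtie2 to mm10, deposited gene signal values that are read counts divided by 1 factor per library, and deposited GCLiPP peaks with a score, called on pooled experiments, whose meaning no source used here states. No source used here names the counting tool or strand setting.

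Values were taken as log2(value + 1). Genes with a mean of at least 50 over 8 libraries (10972) were fitted with limma 3.58.1 (R 4.3.3, eBayes with trend), 5 coefficients and 3 residual degrees of freedom, Benjamini-Hochberg over all genes tested, threshold 0.05. Fold changes are on the log2(value + 1) scale. Whole reads were recovered from the values (100% within 0.01 of a whole number) for all 8 libraries, and edgeR 4.0.16 and DESeq2 1.42.0 were run as alternatives on 7, leaving out stimulated CD8 with actinomycin D, whose values per read were too near 1 to be recognised as scaled. Intervals of counting cover counting error only. Exon overlap came from GENCODE M21 (GRCm38), whose build matches mm10, as did the bases under peaks, and promoters came from RefSeq.

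The members, lists and tests were chosen with earlier results of these data known. All 45 members are covered. Full values are given for the 12 members with the largest stimulation change that moved the same way in both cell types, the 3 with the smallest, the 4 with the largest change in each actinomycin D comparison and between cell types, members called against the majority and some others, and the 6 highest peaks. Of each other list the 3 genes with the largest stimulation change are named. Alternatives were another pseudocount, filter, scaling, tool, model and leaving out each library. A second expression table, with the same values beside fold changes of the authors, was not used.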

Additional observations from a re-analysis of the deposited data

Results flagged for a closer look

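The stimulation change differed between libraries without and with actinomycin D in 8 members by the interaction term in limma, a test of the difference itself. The difference (with minus without the drug, log2 scale) was 2.04 for Cdc6 (adjusted p = 0.0131), 1.50 for Ccne2 (adjusted p = 0.0367), 1.43 for E2f2 (adjusted p = 0.0166) and 1.27 for Rfc1 (adjusted p = 0.0157). It was 0.91 for Prim1 (adjusted p = 0.0449), 0.86 for Rfc4 (adjusted p = 0.0380), 0.80 for Pole (adjusted p = 0.0264) and 0.71 for Cdc45 (adjusted p = 0.0496). In all 8 it was positive, beside 7.06% of all genes tested with a positive and 7.44% with a negative difference past the threshold. None of the 8 was called in every fit that left out 1 library, and edgeR on 7 libraries kept 1. The untreated stimulated Th2 library held the lowest value of 28 of the 45 members, which was not counted over all genes tested. It also held the smallest share of its counts in them, 0.383%. Most of the 8 were still called in the fit without this library. Beyond the fits that left out 1 library, its part in the 8 differences was not tested. Each condition had 1 library, so no test of a single library against others of its group could be made.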

How the results depend on the processing

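No paired analysis was possible because no replicate number links the RNA-seq libraries, and the peaks were pooled and not tested. Th2 and CD8 libraries were matched by a cell type term instead, in the reported model and in fits of 4 libraries. Counts are members called, of 45. The share of all genes tested that each setting called is not given beside them, so they are not read as particular to the members. A library left alone in its arm is assumed to vary like the others. For stimulation without actinomycin D (17) there were 10 without a filter, 36 with ribosomal protein scaling, 11 by edgeR and 4 from the untreated libraries in a fit blocked on cell type, and 2 to 26 when 1 library was left out. For stimulation with the drug (0) there were 3 with ribosomal protein scaling, 1 by DESeq2 and 16 from the drug libraries alone, and 0 to 3 when 1 library was left out. For their difference (8) there were 4 without a filter, 15 with quantile normalisation, 41 with ribosomal protein scaling, 1 by edgeR and 14 with the other 2 two-way terms, and 0 to 23 when 1 library was left out. For the drug in resting cells (18) there were 40 with ribosomal protein scaling and 8 to 23 when 1 library was left out. For the drug in stimulated cells (22) there were 11 by edgeR and 14 by DESeq2, and 7 to 30 when 1 library was left out. For CD8 against Th2 (18) there were 7 by edgeR and 2 in the additive model, and 2 to 18 when 1 library was left out. For the stimulation by cell type difference (0) there were 1 by edgeR and 2 by DESeq2, and 0 to 1 when 1 library was left out. Of the 99 member peaks 42 had a score at or above the list's median.

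Ribosomal protein scaling shifted the median of all genes by -0.94 for the drug in resting cells, and there 13 members changed sign and were called in that or the reported fit: Mcm2 (-0.88), Mcm3 (-0.94), Gins2 (-0.22), Rfc2 (-0.084), Pola2 (-0.86), Prim2 (-0.65), Pold1 (-0.14), Pold2 (-0.21), Lig1 (-0.73), Rpa1 (-0.64), Rpa2 (-0.74), Rrm1 (-0.92) and E2f1 (-0.81). Of all genes called there 1.16% were higher under that scaling, compared with 45.3% as reported. For stimulation without the drug the share was 52.3% as reported, 41.5% with quantile normalisation and 15.8% with ribosomal protein scaling. For the difference it was 48.7% as reported and 93.5% with ribosomal protein scaling, and for the drug in stimulated cells 46.4%, 58.7% with quantile normalisation and 23.6% with ribosomal protein scaling. The members' median minus that of all genes kept its sign in each of these. Ribosomal protein scaling could hardly change it, because 1 factor per library moves all genes nearly alike. The other scalings, filters, pseudocount and tools changed the sign of no called member. Depth gave every member at least 344 reads in each library, and each condition had 1 library.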
